A study of Mus musculus with 12 samples.

Results

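The unfolded protein response genes Xbp1, Ern1, Atf6, Hspa5, Hsp90b1, Herpud1, Dnajb9, Sdf2l1, Pdia4 and Calr were followed in 12 mouse pre-B cell lines. These 10 genes were taken by symbol from a table of 51826 genes, and all 10 were among the 15038 genes with enough reads to be tested. Bone marrow of 2 C57BL/6 mice was cultured with interleukin 7 (IL7) for 7 days, and the pre-B cells of each mouse were transduced with the retroviral vector pMIG, either empty (EV) or carrying BCR-ABL1, a constitutively active kinase made by the Philadelphia translocation. Each mouse gave 3 EV and 3 BCR-ABL1 lines, named here by mouse and letter (1A to 2C), and all were kept for 48 h with IL7. The culture then diverged: lines with BCR-ABL1 spent 1 week more in medium lacking the cytokine, while EV lines received it throughout and were purified by the GFP that pMIG encodes. Total RNA was sequenced. BCR-ABL1 and IL7 withdrawal therefore coincide and cannot be told apart. Whether BCR-ABL1 lines were also sorted for GFP is not stated, and if they were not, sorting coincides with both as well. The age of the mice is not given in the sources used here. By the study's methods the marrow donors were female.

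The unfolded protein response adjusts the protein folding capacity of the endoplasmic reticulum (ER) to its load. Sensor proteins in the ER membrane, among them IRE1 (encoded by Ern1), ATF6 and PERK, respond to unfolded protein in the ER. IRE1 removes a short intron from Xbp1 mRNA, which yields an active transcription factor, while ATF6 is cut free from the membrane and enters the nucleus. Both factors act on genes for ER chaperones and for ER associated degradation (ERAD), the route by which misfolded proteins are returned to the cytosol and degraded. In the B lineage XBP1 is known for its part in the formation of plasma cells, which secrete large amounts of antibody. Gene counts of the kind analyzed here do not show whether Xbp1 mRNA was spliced.

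Promoters of 9 of the 10 genes were found in the RefSeq promoter table (GRCm38.p6, 250 bases before to 50 bases after the start of the gene), and they were searched on both strands for exact matches to known response elements. Near matches with a changed base were not counted, so a promoter without a match can still hold a variant of an element. The ER stress response element (ERSE) joins CCAAT, 9 bases and CCACG, and ERSE-II joins ATTGG, 1 base and CCACG. As background, the CCAAT box is bound by the factor NF-Y and the CCACG end by ATF6 or XBP1. ERSE occurred in 39 of 32851 promoters of the table (0.119%) and in those of 3 members, Hspa5, Calr and Hsp90b1. ERSE-II occurred in 12 promoters (0.0365%), one of them that of Herpud1. These are the members whose opposite changes are described below, and their elements are shown in capitals with 20 bases on either side, each written 5′ to 3′ on the strand of the gene. The Hspa5 element (chr2:34772005-34772063, + strand) lay 65 to 47 bases before the start, the Calr element (chr8:84847055-84847113, − strand) 162 to 144 bases before it, and the Herpud1 element (chr8:94386357-94386407, + strand) 52 to 42 bases before it. Hsp90b1 had one element 212 to 194 bases before its start (chr10:86705618-86705676, − strand) and another 107 to 89 bases before it (chr10:86705513-86705571, − strand). In Calr and in the Hsp90b1 element nearer to the start the motif reads in reverse, from CGTGG to ATTGG. All distances are from the start in the RefSeq table, which can differ from the GENCODE gene positions given below. The GENCODE span of Hspa5 begins at 34771970, so the Hspa5 element lies inside that span.
Hspa5, ERSE: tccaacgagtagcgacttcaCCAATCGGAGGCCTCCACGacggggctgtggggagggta
Calr, ERSE: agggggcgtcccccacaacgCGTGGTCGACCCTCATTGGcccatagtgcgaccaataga
Hsp90b1, ERSE far: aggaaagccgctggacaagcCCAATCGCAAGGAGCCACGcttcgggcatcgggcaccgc
Hsp90b1, ERSE near: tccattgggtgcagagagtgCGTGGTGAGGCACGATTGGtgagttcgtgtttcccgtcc
Herpud1, ERSE-II: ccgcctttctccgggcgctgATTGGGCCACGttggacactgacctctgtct
The single parts of these elements were common. CCAAT on either strand, which includes the CCAAT parts of the elements, was present in 7 of the 9 promoters and in 37.4% of all promoters, and CCACG in 8 of 9 and in 32.8%. The UPR element core TGACGTGG was in 0 of 9 and in 0.676% of all promoters.

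Sequencing depth, as counts on genes, ranged from 34791011 to 64547911 in EV lines and from 45230023 to 66011225 with BCR-ABL1, and every member had at least 499 counts in every line. Values are read counts scaled to library size (CPM) and adjusted by TMM, a normalization that sets the bulk of genes equal between libraries. All 12 pro-B and pre-B cell markers were detected, with summed levels of 2765 to 5038 CPM among EV lines and 2937 to 3880 CPM with BCR-ABL1. Among them Il7r, the IL7 receptor, was lower in BCR-ABL1 lines (log2 fold change -1.06). Dntt, the terminal transferase of early B cells, had a log2 fold change of 4.30 (FDR = 0.0396 by edgeR), with 9.40 in mouse 1 alone and 2.06 in mouse 2 alone (FDR = 0.454), and its call was lost with mouse as replicate block (FDR = 0.0533) and without BCR-ABL1 line 1C. Myeloid markers summed to 0.216 to 1.66 CPM among EV lines and 1.78 to 4.43 CPM with BCR-ABL1, with 3 of the 10 at 3 or fewer counts in every line. Of these markers only Fcgr3 was tested, and it was higher in BCR-ABL1 lines (log2 fold change 5.47), and the part of myeloid cells in the results was not tested. T and NK cell markers reached 1.59 and 3.68 CPM in EV and BCR-ABL1 lines, mast cell and basophil markers 0.644 and 0.0304, erythroid markers 0.951 and 0.289, and stromal markers 1.47 and 0.203. Of these only Klrb1c (log2 fold change 1.45, FDR = 0.497) and Klf1 (-0.49, FDR = 0.947) were tested by edgeR, and neither was called. In bulk RNA, fewer cells of a type and less RNA per cell cannot be told apart. Before any comparison, EV lines of mouse 2 stood apart. The nuclear RNA Rn7sk took 7.84% and 6.36% of the counts of EV lines 2A and 2B, but 2.25% to 3.46% in the other EV lines and 1.46% to 2.13% in BCR-ABL1 lines. EV line 2C differed from all other EV lines in most of the members, as described below, and Il7r was at 235 CPM in this line against 372 CPM or more in the other EV lines and 189 CPM or less in BCR-ABL1 lines.

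The test of BCR-ABL1 against EV lines was edgeR's glmTreat, which asks whether a change exceeds 1.5-fold, with Benjamini-Hochberg adjustment over all tested genes (FDR) and a threshold of 0.05. The p-values measure the spread between lines that derive from 2 mice. By this test 1 of the 10 genes was higher in BCR-ABL1 lines, Xbp1, and 1 was lower, Herpud1, while 8 were not called. Over all tested genes 5.99% were called higher and 6.49% lower, and 1 call in each direction among 10 genes is near this background. Against no change instead of 1.5-fold, edgeR called 6 members higher (Xbp1, Hspa5, Hsp90b1, Calr, Pdia4 and Sdf2l1) and 2 lower (Atf6 and Herpud1), where 22.5% and 25.9% of all genes were called. With mouse as replicate block this test called 7 higher, Dnajb9 in addition, and 2 lower, where 25.1% and 27.2% of all genes were called. The members' median log2 fold change was 0.59, and that of all tested genes -0.02. The 6 BCR-ABL1 lines lay above all 6 EV lines for 4 members and below them for 1, where 12.1% and 13.5% of all genes were separated in these directions.

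**Figure D1:**
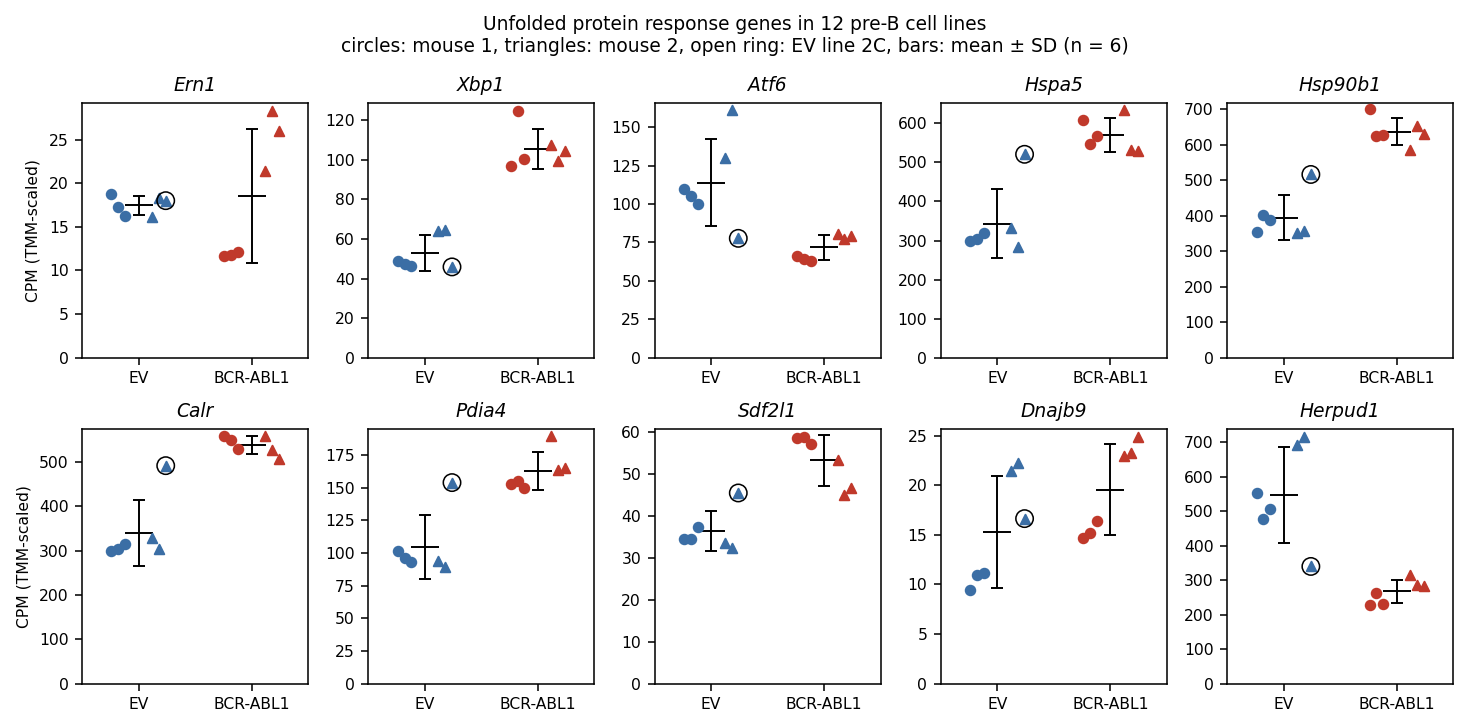
TMM-scaled CPM (vertical axes, from 0) of the 10 unfolded protein response genes in the 6 EV lines (blue) and 6 BCR-ABL1 lines (red); circles are lines of mouse 1, triangles lines of mouse 2, the open ring marks EV line 2C, and bars give mean ± SD (n = 6). Xbp1 stands higher in every BCR-ABL1 line than in any EV line and Herpud1 lower, whereas in Ern1 the BCR-ABL1 lines of mouse 1 and mouse 2 lie on opposite sides of the EV lines.

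Among the sensors and transducers, Xbp1 (ENSMUSG00000020484, chromosome 11, 5520659 to 5525893) showed the clearest difference. Its level was 48.7, 47.4 and 46.1 CPM in EV lines 1A, 1B and 1C and 64.2, 64.7 and 45.9 CPM in EV lines 2A, 2B and 2C. In BCR-ABL1 lines Xbp1 was at 97.1, 125 and 100.4 CPM for mouse 1 and at 108, 99.6 and 104 CPM for mouse 2. The lowest BCR-ABL1 line was above the highest EV line, and EV line 2C was the lowest of all. EV lines averaged 52.8 ± 9.07 CPM and BCR-ABL1 lines 105.7 ± 10.1 CPM (SD, n = 6 each), a ratio of 2.00. The log2 fold change of Xbp1 was 1.00 (standard error, SE, 0.11, FDR = 0.00382 by edgeR). In mouse 1 lines alone it was 1.19 (FDR = 4.03e-05) and in mouse 2 lines alone 0.85 (FDR = 0.144). These effects were not shown to differ between the mice over the 12 lines (interaction FDR = 0.258 by edgeR), but without EV line 2C the difference, -0.49 (log2, mouse 2 minus mouse 1), passed this test (FDR = 0.0106).

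Ern1, which encodes the sensor IRE1 that splices Xbp1 mRNA (ENSMUSG00000020715, chromosome 11, 106394650 to 106487852), did not follow its substrate. EV lines 1A, 1B and 1C had 18.8, 17.3 and 16.2 CPM of Ern1, and EV lines 2A, 2B and 2C had 16.2, 18.3 and 18.0 CPM. BCR-ABL1 lines had 11.6, 11.8 and 12.1 CPM in mouse 1, but 21.4, 28.3 and 26.0 CPM in mouse 2. All 3 BCR-ABL1 lines of mouse 1 were thus below all EV lines and all 3 of mouse 2 above them. Group means of Ern1 were close, 17.5 ± 1.10 CPM for EV and 18.5 ± 7.67 CPM for BCR-ABL1 (SD, n = 6 each), but the coefficient of variation was 6.32% among EV and 41.4% among BCR-ABL1 lines. Over 12 lines the log2 fold change was 0.09 (SE 0.25, FDR = 1 by edgeR), with -0.55 in mouse 1 and 0.54 in mouse 2, neither of them called on its own (FDR = 0.880 and 0.892). The difference of 1.09 between these effects (log2, mouse 2 minus mouse 1) passed the interaction test of edgeR (FDR = 0.000922). Ern1 was the only one of the 10 genes to do so with all 12 lines, and 16.9% of all tested genes did. Without EV line 2C the interaction was called for 3 members, Ern1, Xbp1 and Dnajb9, but also for 36% of all tested genes.

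Atf6, the gene of the membrane-bound factor that is cut on ER stress (ENSMUSG00000026663, chromosome 1, 170704674 to 170867771), had lower values in most BCR-ABL1 lines. It was at 109.8, 105 and 100.0 CPM in EV lines 1A, 1B and 1C, at 130.0 and 161 CPM in EV lines 2A and 2B, and at 77.6 CPM in EV line 2C. BCR-ABL1 lines had 66.0, 63.9 and 63.1 CPM in mouse 1 and 80.6, 77.3 and 79.5 CPM in mouse 2. The groups of Atf6 overlapped through EV line 2C, which lay among the BCR-ABL1 lines of mouse 2. EV lines averaged 113.9 ± 28.5 CPM and BCR-ABL1 lines 71.7 ± 8.22 CPM (SD, n = 6 each). Its log2 fold change of -0.67 (SE 0.16) was not beyond 1.5-fold (FDR = 0.454) but differed from no change (FDR = 0.00358, both by edgeR). In mouse 1 alone Atf6 was called lower (-0.70, FDR = 0.0308).

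The ER chaperones had higher values in BCR-ABL1 lines. Hspa5 encodes BiP, the ER member of the HSP70 family, which holds unfolded chains and keeps the sensors inactive (ENSMUSG00000026864, chromosome 2, 34771970 to 34777547). EV lines 1A to 2B had 299.8, 304, 321, 331 and 283 CPM of Hspa5, and EV line 2C had 521 CPM. BCR-ABL1 lines had 609, 547 and 569 CPM in mouse 1 and 634, 532 and 530.0 CPM in mouse 2. The groups did not overlap, but EV line 2C was just below the lowest BCR-ABL1 line. Over 12 lines the log2 fold change was 0.73 (SE 0.14, FDR = 0.245 against 1.5-fold and 0.00123 against no change, by edgeR), and without EV line 2C it was 0.89 (FDR = 0.00100 against 1.5-fold).

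Hsp90b1 encodes GRP94, the ER member of the HSP90 family (ENSMUSG00000020048, chromosome 10, 86690209 to 86705509). Its EV lines 1A to 2B were at 354, 400.1, 387, 350.2 and 355 CPM and EV line 2C at 516 CPM, while BCR-ABL1 lines were at 699, 623 and 627 CPM in mouse 1 and 585, 652 and 629 CPM in mouse 2. Every BCR-ABL1 line was above every EV line, with a log2 fold change of 0.69 (SE 0.09, FDR = 0.233 by edgeR's glmTreat, 0.79 and FDR = 0.00697 without EV line 2C). Exons of Hsp90b1 overlap those of 1810014B01Rik on the other strand and of Gm15344 and Gm25745 on the same strand, so that its counts could be shared with them. Exons of Dnajb9 and Pdia4 overlap only the microRNA genes Mir5627 and Mir704. Calr encodes calreticulin, a calcium-binding chaperone of glycoproteins (ENSMUSG00000003814, chromosome 8, 84841850 to 84846934). It had 299, 304, 314, 328 and 304 CPM in EV lines 1A to 2B and 492 CPM in EV line 2C, against 559, 549.8 and 529 CPM in mouse 1 and 557, 526 and 506 CPM in mouse 2 with BCR-ABL1. Its groups also did not overlap. The log2 fold change of Calr was 0.66 (SE 0.12, FDR = 0.404 by glmTreat), and without EV line 2C it was 0.80 (FDR = 0.00132).

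Pdia4 and Sdf2l1 had values that overlapped narrowly. Pdia4, a disulfide isomerase (ENSMUSG00000025823, chromosome 6, 47796141 to 47813430), had 102, 96.3, 93.2, 93.6 and 89.6 CPM in EV lines 1A to 2B and 154 CPM in EV line 2C. BCR-ABL1 lines had 153, 155 and 150.1 CPM of Pdia4 in mouse 1 and 189.6, 163 and 166 CPM in mouse 2. Only EV line 2C reached into the BCR-ABL1 range. The log2 fold change was 0.64 (SE 0.13, FDR = 0.525 by glmTreat), and Pdia4 was called without EV line 2C (0.78, FDR = 0.0105). Sdf2l1, a partner of ER HSP40 proteins (ENSMUSG00000022769, chromosome 16, 17130138 to 17132383), had 34.6, 34.4, 37.3, 33.6 and 32.4 CPM in EV lines 1A to 2B and 45.4 CPM in EV line 2C, and 58.4, 58.7 and 57.1 CPM in mouse 1 and 53.3, 45.0 and 46.6 CPM in mouse 2 with BCR-ABL1. BCR-ABL1 line 2B was just below EV line 2C. Its log2 fold change was 0.55 (SE 0.10, FDR = 0.930 by glmTreat and 0.000927 against no change).

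Dnajb9, which encodes the HSP40 cochaperone ERdj4 that brings BiP to its clients and to IRE1 (ENSMUSG00000014905, chromosome 12, 44205559 to 44210326), had higher levels in mouse 2 than in mouse 1 in both conditions. It was at 9.39, 10.9 and 11.1 CPM in EV lines of mouse 1 and at 21.4, 22.2 and 16.6 CPM in those of mouse 2. With BCR-ABL1 it was at 14.7, 15.2 and 16.4 CPM in mouse 1 and at 23.0, 23.3 and 24.9 CPM in mouse 2. Within each mouse all 3 BCR-ABL1 lines of Dnajb9 were above all 3 EV lines, but the groups overlapped over 12 lines. The log2 fold change was 0.36 (SE 0.26, FDR = 1 by glmTreat and 0.236 against no change). With mouse as replicate block, which takes up the difference in level between the mice, it was 0.40 and passed the test against no change (FDR = 0.00612 by edgeR), but not that against 1.5-fold.

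Herpud1, a membrane protein that organizes the HRD1 ubiquitin ligase complex of ERAD (ENSMUSG00000031770, chromosome 8, 94386438 to 94395377), went the other way. EV lines 1A, 1B and 1C had 552, 477 and 505 CPM, EV lines 2A and 2B had 691 and 714 CPM, and EV line 2C had 339.7 CPM. BCR-ABL1 lines had 229, 262 and 232 CPM in mouse 1 and 314, 285 and 284 CPM in mouse 2. All BCR-ABL1 lines were below all EV lines, of which EV line 2C was the lowest. Herpud1 averaged 547 ± 140.3 CPM in EV and 268 ± 33.5 CPM in BCR-ABL1 lines (SD, n = 6 each), and its log2 fold change was -1.03 (SE 0.18, FDR = 0.0213 by edgeR's glmTreat). Other settings moved this call across the threshold. It was lost with DESeq2 (FDR = 0.111, under 0.05 unadjusted), without BCR-ABL1 line 1C (FDR = 0.0537 by edgeR) and without EV lines 2A and 2B (-0.82, FDR = 0.0947 by edgeR). Without those 2 lines 1 member was called higher (Xbp1) and 0 lower, where 9.34% and 6.16% of all genes were called. Within a line, the ratio of Herpud1 to Hspa5 counts does not depend on the normalization. It was 1.84, 1.57 and 1.58 in EV lines of mouse 1 and 2.09, 2.53 and 0.652 in those of mouse 2, against 0.375, 0.479 and 0.407 in mouse 1 and 0.496, 0.537 and 0.536 in mouse 2 with BCR-ABL1. The ratio was above 1 in 5 of 6 EV lines and below it in EV line 2C and every BCR-ABL1 line.

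Lines of the 2 mice were also compared separately. In mouse 1 alone glmTreat called 5 members higher (Xbp1, Hspa5, Hsp90b1, Calr and Sdf2l1) and 2 lower (Atf6 and Herpud1), where 16.3% and 12.2% of all genes were called. In mouse 2 alone edgeR called 0 members in either direction, where 3.99% and 2.65% of all genes were called, and at an unadjusted p under 0.05 it gave 1 higher (Xbp1) and 1 lower (Herpud1). At no member but Ern1 did the sign of the log2 fold change differ from that in mouse 1. Without EV line 2C the count over both mice was 5 higher (Xbp1, Hspa5, Hsp90b1, Calr and Pdia4) and 1 lower (Herpud1), where 8.83% and 9.35% of all genes were called. Against no change and without EV line 2C it was 6 higher and 2 lower, where 26.5% and 28.8% of all genes were called.

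**Figure D2:**
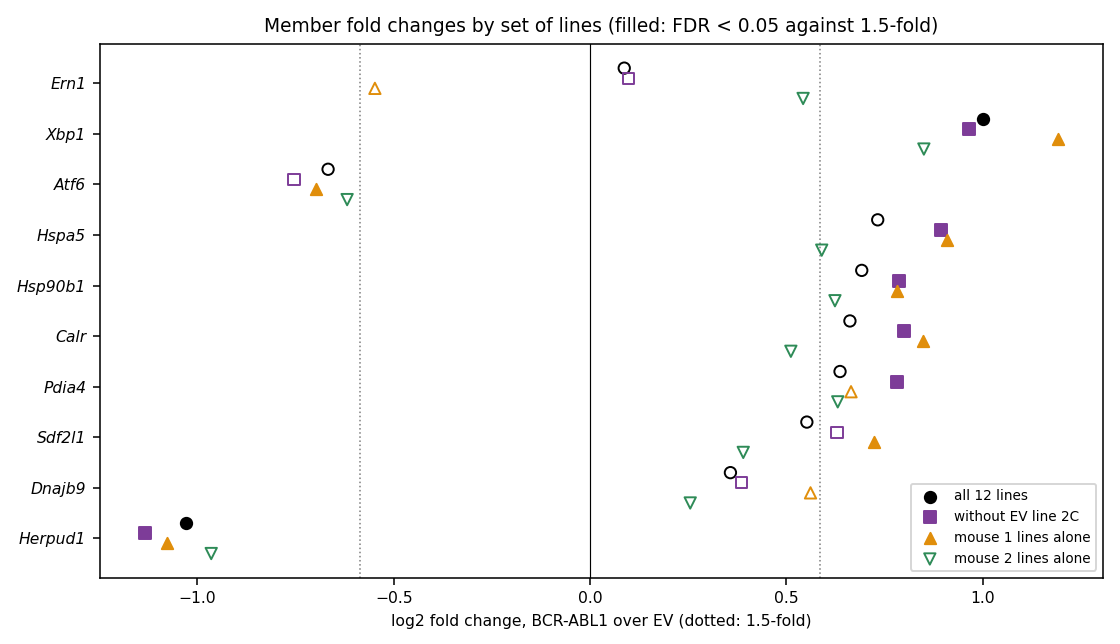
Log2 fold change of BCR-ABL1 over EV lines (horizontal axis) for each gene in all 12 lines, without EV line 2C, in mouse 1 alone and in mouse 2 alone; filled symbols passed an FDR of 0.05 against 1.5-fold (edgeR), and dotted lines mark 1.5-fold. Xbp1 and Herpud1 are filled with all 12 lines, Hspa5, Hsp90b1, Calr and Pdia4 are added without EV line 2C, and Ern1 changes sign between the mice.

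For 7 of the 10 genes EV line 2C was closer to the BCR-ABL1 mean than to that of the other EV lines, whether all lines or only those of mouse 2 were compared. On the log2 scale, and relative to the other 5 EV lines, it covered 85.8% of the distance to the BCR-ABL1 mean for Hspa5, 90.2% for Pdia4, 83.7% for Calr, 64.6% for Sdf2l1 and 61.7% for Hsp90b1. For the genes with lower values it covered 83.5% for Atf6 and 68.6% for Herpud1. Against EV lines 2A and 2B and the BCR-ABL1 lines of mouse 2 alone, these 7 genes covered 67.0% to 103%. Dnajb9 covered 55.1% over all lines, but this value mixes the levels of the mice: within mouse 2 it was at 16.6 CPM in EV line 2C, below EV lines 2A and 2B and farther from the BCR-ABL1 lines. Xbp1 was at -23.0%, that is, it was moved away from the BCR-ABL1 lines (45.9 CPM against 54.2 ± 9.40 CPM, SD, n = 5, in the other EV lines). Ern1 gives no such value, because its mean hardly differed between the groups. EV line 2C had the empty vector by its label, and the part that this line's state has in the results was not tested beyond leaving it out. How many of all tested genes lay closer to the BCR-ABL1 mean in this line was not counted. The 7 of 10 are therefore not shown to be particular to the members. Without this line, calls over all genes went from 5.99% higher and 6.49% lower to 8.83% and 9.35%.

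**Figure D3:**
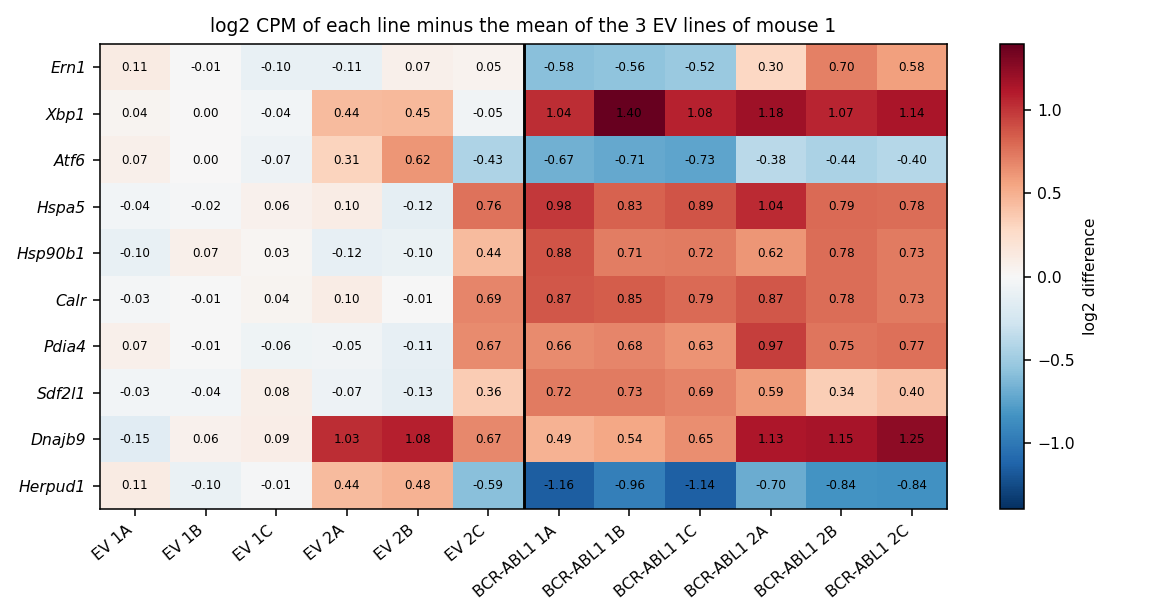
Log2 CPM of each gene (rows) in each line (columns) minus the mean of the 3 EV lines of mouse 1, printed in each cell and shown in red for higher and blue for lower. The column of EV line 2C resembles the BCR-ABL1 columns for the chaperones (0.36 to 0.76), Atf6 (-0.43) and Herpud1 (-0.59), but not for Xbp1 (-0.05).

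The genes moved in blocks across lines. Pearson's r of log2 CPM over the 12 lines was 0.872 to 0.993 among Hspa5, Hsp90b1, Calr, Pdia4 and Sdf2l1, -0.972 to -0.887 between Herpud1 and these genes, -0.931 to -0.836 between Atf6 and these genes, and 0.969 between Herpud1 and Atf6. After the mean of each condition and mouse was removed, Xbp1 had an r of -0.874 to -0.641 with these chaperone genes, where it had 0.738 to 0.798 before. Dnajb9 likewise had -0.871 to -0.635 after and 0.210 to 0.458 before. These values are descriptions, since the lines share mice and conditions, and the residuals rest mostly on 1 group: EV lines of mouse 2 held 87.3% of the residual sum of squares of Hspa5, 97.8% of that of Atf6 and a median of 62.2% over all tested genes. Among the 8662 genes whose average log2 CPM reached 3, those most like Hspa5 over the 12 lines were Calr (r = 0.993), Mrpl19 (0.990), Tomm20 (0.988), Eif1a (0.988) and Prdx6 (0.988). After removal of the means they were Wdr55, Cct7, Gtf2h1, Ftsj3 and Zwint, with r between 0.993 and 0.996.

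Levels per length give the order of the genes within a condition. In EV lines Herpud1 was the highest, at 234 ± 60.1 CPM per kb of exon (SD, n = 6), followed by Calr (118), Hsp90b1 (97.6), Hspa5 (81.1), Pdia4 (43.7), Sdf2l1 (32.7), Xbp1 (16.3), Atf6 (12.3), Dnajb9 (5.99) and Ern1 (2.14). In BCR-ABL1 lines the order was Calr (187), Hsp90b1 (158), Hspa5 (135), Herpud1 (115), Pdia4 (67.9), Sdf2l1 (48.0), Xbp1 (32.5), Atf6 (7.77), Dnajb9 (7.67) and Ern1 (2.27). Herpud1 thus stood behind Calr, Hsp90b1 and Hspa5 in BCR-ABL1 lines. In EV lines each of the 4 highest genes overlapped its neighbor in the order, as did Pdia4 and Sdf2l1, Xbp1 and Atf6, and Atf6 and Dnajb9. In BCR-ABL1 lines the overlapping neighbors were Hsp90b1 and Hspa5, Hspa5 and Herpud1, and Atf6 and Dnajb9.

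**Figure D4:**
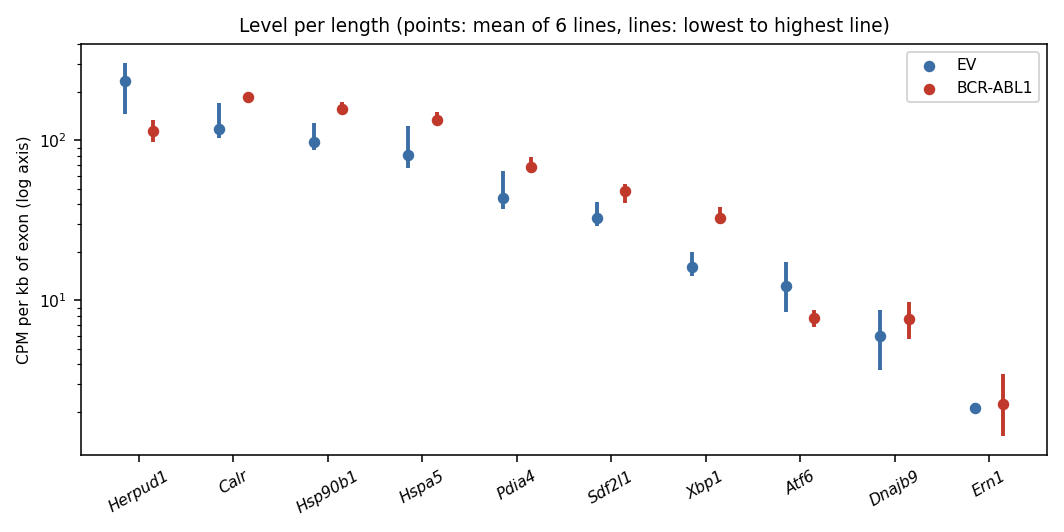
Level per length (TMM-scaled CPM per kb of exon, log axis) of the 10 genes in EV lines (blue) and BCR-ABL1 lines (red), ordered by the EV mean; points are means of 6 lines and vertical lines span the lowest to the highest line. Herpud1 is highest in EV lines (234) and below Calr, Hsp90b1 and Hspa5 in BCR-ABL1 lines (115), and Ern1 is lowest in both.

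The wider ER folding system was described by 5 lists with 75 genes, of which 72 were tested. By glmTreat 3 were higher and 2 lower with BCR-ABL1, and against no change 34 were higher and 11 lower (edgeR), with a median log2 fold change of 0.20. Over all tested genes the shares were 5.99% and 6.49% against 1.5-fold and 22.5% and 25.9% against no change. Of the 20 ER chaperones and folding enzymes, 1 was called higher and 0 lower against 1.5-fold, 18 were higher and 1 lower against no change, and the median was 0.39. The lectin chaperone Canx had 333 to 695 CPM with the empty vector and 749 to 869 CPM with BCR-ABL1. Its log2 fold change was 0.80 (FDR = 0.138 by glmTreat), against 0.66 for Calr over the same lines. The one called was Fkbp11, a prolyl isomerase, which rose by 1.94 (FDR = 0.00621) from a low level of 0.0768 to 0.245 CPM to 0.251 to 0.924 CPM. Sdf2, the relative of Sdf2l1, had the only negative value in this list (-0.53).

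The 17 ERAD genes had a median of -0.07, with 1 called higher and 2 lower against 1.5-fold and 3 higher (Ngly1, Ube2g2 and Vcp) and 5 lower (Syvn1, Derl3, Derl1, Ube2j1 and Herpud2) against no change. Of all tested genes 5.99% were higher and 6.49% lower against 1.5-fold, and 22.5% and 25.9% against no change. The ERAD counts against no change are near these shares. Syvn1, the HRD1 ubiquitin ligase with which HERPUD1 acts, had 139 to 236 CPM with the empty vector and 84.3 to 105 CPM with BCR-ABL1. It fell by 0.98 on the log2 scale (SE 0.12, FDR = 0.00505 by edgeR). Derl3, a channel component of ERAD, fell by 1.35 (FDR = 0.0116), from 3.23 to 6.14 CPM among EV lines to 1.19 to 2.22 CPM with BCR-ABL1, and its change differed between the mice (interaction FDR = 0.0115). Ngly1, which removes glycans from retrotranslocated proteins, rose by 1.10 (FDR = 0.000297), from 39.4 to 58.4 CPM to 93.6 to 104 CPM. Sel1l, the partner of HRD1, had a log2 fold change of -0.09.

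The lists of this paragraph are to be read beside the edgeR shares of all tested genes. These were 5.99% higher and 6.49% lower against 1.5-fold, and 22.5% and 25.9% against no change. Sensors and other activators (12 of 15 tested) had 0 called in either direction against 1.5-fold by edgeR, as by DESeq2 and at an unadjusted p under 0.05, with 1 higher (Mbtps2) and 4 lower (Mbtps1, Traf2, Bloc1s1 and Nfya) against no change and a median of -0.14. The lowest p-values in this list were those of Creb3l2 (log2 fold change 1.59, FDR = 0.251) and Bloc1s1 (-0.56, FDR = 0.806), both low in level, and Creb3l2 differed between the mice (interaction FDR = 0.0238). Of the 7 genes of the PERK branch 1 was called higher and 0 lower, 4 were higher against no change (Trib3, Eif2s1, Atf4 and Ppp1r15b), and the median was 0.55. Trib3, a pseudokinase induced by ATF4 and CHOP, rose by 3.64 (SE 0.65, FDR = 0.0101 by edgeR), with 5.56 to 10.4 CPM in BCR-ABL1 lines, 3.14 CPM in EV line 2C and 0.278 CPM or less in the other EV lines. Eif2ak3, the gene of PERK itself, had a log2 fold change of 0.13, Atf4 0.55 and Ddit3, the gene of CHOP, -0.41, and none of these was beyond 1.5-fold. The 16 genes of ER translocation and signal peptide removal had 0 called against 1.5-fold by edgeR and by DESeq2 (1 lower, Sec63, at an unadjusted p under 0.05 with edgeR), 8 higher and 1 lower (Sec63) against no change, and a median of 0.20. Sec63 (-0.96, FDR = 0.131) and Sec24d (-0.99, FDR = 0.602) had the lowest p-values among them.

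**Figure D5:**
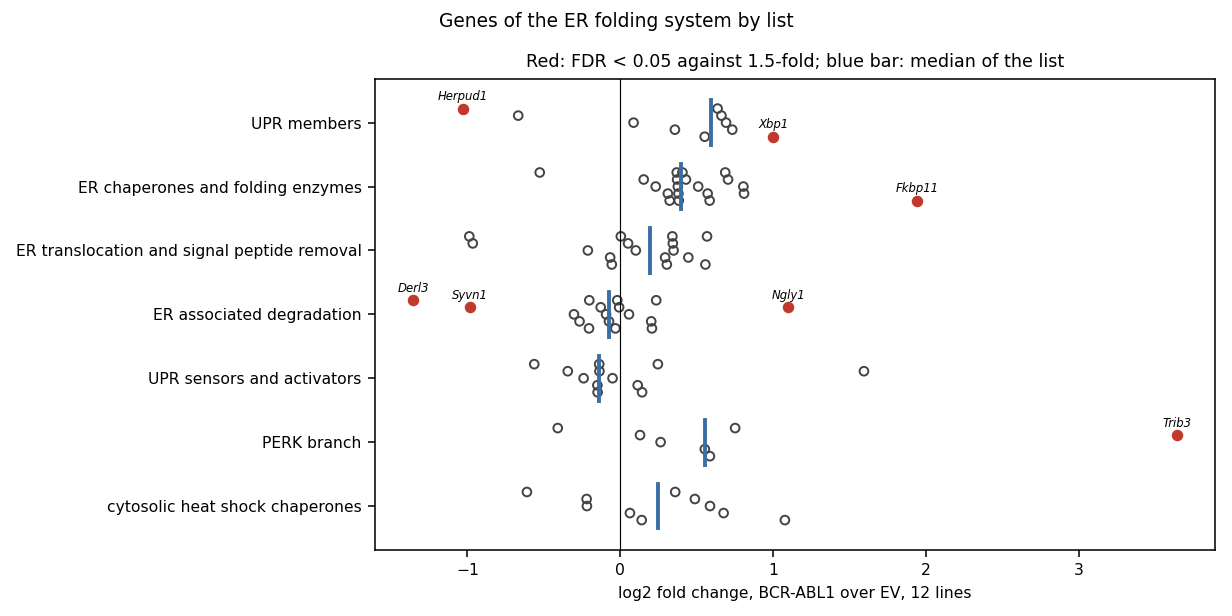
Log2 fold change of BCR-ABL1 over EV lines for each tested gene (points) of the 10 members, 5 lists of the ER folding system and the cytosolic heat shock chaperones; red points passed an FDR of 0.05 against 1.5-fold (edgeR) and blue bars are medians. The median is 0.39 for ER chaperones and -0.07 for ERAD, where Syvn1 and Derl3 stand on the left and Ngly1 on the right.

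Genes outside the ER response were listed for comparison. Over all tested genes 5.99% were higher and 6.49% lower against 1.5-fold, and 22.5% and 25.9% against no change. Of 10 tested cytosolic heat shock chaperones 0 were called against 1.5-fold by edgeR and by DESeq2 (1 higher, Hspa1a, at an unadjusted p under 0.05 with edgeR), 5 were higher (Hspa8, Hsp90aa1, Hsp90ab1, Hspa1a and Stip1) and 1 lower (Dnajb1) against no change, and the median was 0.25. Hspa1a (1.08, FDR = 0.139) and Hsp90aa1 (0.68, FDR = 0.477) had the lowest p-values there. The 9 genes of immunoglobulin and pre-B receptor cargo, which are folded in the ER, had a median of -0.00, with 1 higher and 2 lower. The heavy chain gene Ighm fell by 1.07 (FDR = 0.00129) and the light chain gene Igkc had a log2 fold change of -2.75 (FDR = 2.70e-07). In contrast Jchain, the joining chain of secreted antibody, rose by 3.21 (FDR = 0.00405, all by glmTreat). The change of Jchain differed between the mice (-2.45, log2, mouse 2 minus mouse 1). A list of genes tied to plasma cell formation held both factors of that program and genes that oppose it, such as Bcl6 and Pax5, so that its counts give no direction for the program. Of its 6 tested genes 0 were higher and 2 lower against 1.5-fold, and 1 was higher (Sdc1) and 3 lower (Prdm1, Irf4 and Bcl6) against no change. Prdm1, the gene of Blimp-1, which drives plasma cell formation, fell by 3.15 (FDR = 0.00243 by edgeR). It was at 30.5 CPM in EV line 2B and at 7.42 CPM or less in the other EV lines. Bcl6, a repressor of that program, had a log2 fold change of -4.08 (FDR = 1.31e-05 by edgeR). Sdc1, a surface protein of plasma cells, had 1.89 to 21.6 CPM among EV lines and 15.3 to 34.1 CPM with BCR-ABL1 (log2 fold change 1.18, FDR = 0.235 by glmTreat and 0.0472 against no change). Ell2, an elongation factor used in antibody secretion, had a log2 fold change of 1.90 in mouse 1 alone (FDR = 7.75e-08) and -0.33 in mouse 2 alone, and these effects differed (interaction FDR = 0.00257 by edgeR).

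Genes with the response elements were counted in the same way, and their counts are to be read beside the shares of all genes, 5.99% higher and 6.49% lower against 1.5-fold and 22.5% and 25.9% against no change. Of 37 genes with an ERSE among the RefSeq promoters, 16 were tested, and 0 were higher and 2 lower against 1.5-fold (Derl3 and Syvn1), while against no change 7 were higher and 5 lower. The 7 were Hspa5, Hsp90b1, Calr, Canx, Pdia6, Creld2 and Dnajc3, which encode ER chaperones or folding factors, and the 5 were Derl3, Syvn1, Alg12, Pan2 and 1700122E12Rik. The median log2 fold change was 0.24. Of 12 genes with ERSE-II 9 were tested, with 0 higher and 1 lower (Herpud1) against 1.5-fold, 3 higher (Dnajb11, Krtcap2 and Rcl1) and 3 lower (Herpud1, Nucb1 and Gm46430) against no change and a median of -0.06. The sequences printed above from Hspa5 and Herpud1 thus belong to promoters whose genes changed in opposite directions, and the presence of an element is a description of letters only.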

How the data were processed

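Raw whole-number counts per gene were deposited by the authors for 12 lines, without normalization or pooling. The submitters' processing notes name FastQC 0.11.5, Trimmomatic 0.36, TopHat2 2.1.1, Bowtie2 2.3.2, featureCounts 1.5.3 and the build GRCm38, and the strand setting of the counter is not given in the sources used here. Symbols, positions and exon lengths came from GENCODE M21, which held 51633 of 51826 identifiers, and promoters from RefSeq. After filterByExpr and TMM normalization, genes were tested by glmTreat on the quasi-likelihood fit (edgeR 4.0.16 and limma 3.58.1 in R 4.3.3; DESeq2 1.42.0 as an alternative), with log2 CPM at a prior count of 2. Standard errors (SE) are those of log2 CPM over the lines of each group. Depth per line was 34791011 to 66011225 counts. The members, the lists and the marker genes were chosen with earlier results of these data known. All 10 members are named, and from each other list the called genes or, where none was called, the 2 with the lowest p. The 5 genes most correlated with Hspa5 are also named. Other genes, such as Canx, Sdf2, Sel1l, Eif2ak3, Atf4, Ddit3 and those that make up a small count, were named after their values were seen. Alternatives were RLE and upper quartile normalization, other gene filters, a likelihood ratio fit, DESeq2, no change as the null, blocks, each mouse alone and each line left out. Removing EV lines 2A and 2B, and testing against no change without EV line 2C or with mouse as replicate block, were chosen after seeing the data.

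Lines share the numbers 1A to 2C across conditions, and the first digit marks the mouse. Deviations from the condition means correlated at 0.0853 to 0.240 for the same mouse and at -0.203 to -0.0636 for different mice. With the mouse means removed, equal numbers gave -0.109 to 0.0856, so no pairing of equal numbers was seen beyond the mouse. By the study's methods the triplicates came from independent experiments, but the labels do not say that a letter marks one. An effect shared by lines of the same letter across the mice was not tested. Under the mouse as replicate block the members called were 1 higher and 1 lower, where 7.49% and 7.18% of all genes were called. Replicates differed in counts by a chi-square per gene of 9.36 to 434, so none was treated as the same library. The fit was tested on simulated counts of 14845 genes in 12 lines. It recovered 34 of 100 genes changed 2-fold and 91 of 100 changed 4-fold and called 0 others. The simulated lines were independent, with no mouse effect and no deviant line, so this does not show the error rate for the real lines.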

Additional observations from a re-analysis of the deposited data

Results flagged for a closer look

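For 31 named genes in 62 groups of 6 lines, the gap of the highest or lowest line to the next was compared with the range of the group (Dixon's 95% criterion), and 13 groups had such a line, of which 4 were among the 20 groups of the members. For independent lines with normal values, chance gives about 1 in 20 groups. The groups here mix lines of 2 mice, and the share over all tested genes was not counted. All 4 flags of the members came from EV line 2C, so they are not separate events. In EV line 2C, Hspa5 was at 521 CPM, Hsp90b1 at 516 CPM, Pdia4 at 154 CPM and Calr at 492 CPM, each far above the other 5 EV lines. The same line was far above them in Trib3 (3.14 CPM) and far below them in Bcl6 (11.7 CPM) and Il7r (235 CPM). EV line 2B was far above the others in Sec24d (3.81 CPM), Prdm1 (30.5 CPM) and Dntt (18.5 CPM), and EV line 2A in Hspa1a (1.04 CPM) and Fcgr3 (0.337 CPM). Among BCR-ABL1 lines, Hsp90aa1 stood out in line 2A, at 1484 CPM.

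The change with BCR-ABL1 differed between the mice for 6 of the 31 named genes (edgeR interaction, FDR under 0.05), where 16.9% of all tested genes had such a difference. As mouse 2 minus mouse 1 on the log2 scale, the difference was 1.09 for Ern1, -3.05 for Creb3l2, -1.28 for Derl3, -2.45 for Jchain, -7.35 for Dntt and -5.94 for Klrb1c. Ern1 was the one in which every BCR-ABL1 line of mouse 1 was below, and every one of mouse 2 above, all EV lines.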

How the results depend on the processing

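Against 1 member called higher and 1 lower, the test against no change gave 6 and 2, and the same test without EV line 2C gave 6 and 2, where 26.5% and 28.8% of all genes were called. With mouse as replicate block the test against no change gave 7 and 2 (25.1% and 27.2% of all genes). Mouse 1 lines alone gave 5 and 2 (16.3% and 12.2% of all genes), and mouse 2 lines alone 0 and 0 (3.99% and 2.65%). DESeq2 gave 1 higher and 0 lower (5.29% and 4.33% of all genes), as did the removal of EV lines 2A and 2B (9.34% and 6.16%). Leaving out each line in turn gave 1 to 5 higher and 0 to 1 lower. The count of 5 came only without EV line 2C (8.83% of all genes higher). The count of 0 came only without BCR-ABL1 line 1C (5.63% of all genes lower). For the 75 genes of the 5 lists, against 3 higher and 2 lower, the counts were 34 and 11 against no change, 33 and 12 against no change without EV line 2C, 35 and 12 against no change with mouse as replicate block, 8 and 4 in mouse 1 alone and 1 and 1 in mouse 2 alone. Without EV lines 2A and 2B 6 of these were higher (9.34% of all genes), and without EV line 2C 7 (8.83%). All counts of these 75 genes are to be read beside the shares of all genes given above for the same setting. Members with an interaction numbered 1 in all but one omission, and 3 without EV line 2C. With the line number as replicate block, 1 of the 75 genes was lower, and the other counts of calls given here stayed within 1.5 times those of the same test without a block, mouse as replicate block included. The sign of Ern1 turned to -0.013 with mouse and to -0.0158 with line number as replicate block, to -0.55 in mouse 1 alone, to -0.0294 without BCR-ABL1 line 2C and to -0.0696 without BCR-ABL1 line 2B, in a range up to 0.215 over all single omissions, and the cause was not tested. No other member changed sign under any of the 25 alternatives. Every member had at least 499 counts in every line.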
